A study of Homo sapiens with 22 samples.

Results

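The sites described here are places where untreated cells carried both cohesin and CTCF, and where no cohesin peak was called once NIPBL had been degraded. They were chosen by the presence and absence of called peaks, as RAD21 peaks of clone D7 in DMSO that overlapped, by at least 1 bp, a RAD21 peak of clone A2 in DMSO and a CTCF peak of wild-type cells, and that overlapped no peak of the 4 RAD21 lists made after dTAGV-1. The clone D7 DMSO list held 37566 peaks, of which 31719 overlapped a clone A2 DMSO peak, and the 28543 of those at a CTCF peak are called shared sites below. Of these, 1153 had no peak in any treated list, which is 4.04% of the shared sites. This count was fixed by the choice and is a description. Below, "lost" means only that no peak was called. It rested most on the 4 h library of clone D7: without that list 2823 sites would have qualified.

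All libraries came from hTERT RPE-1, an established human line of retinal pigment epithelium that telomerase keeps dividing, and the cells were not synchronised. Clone A2 carries mCherry-P2A-FKBP12(F36V)-NIPBL and clone D7 carries mGreenLantern-P2A-FKBP12(F36V)-NIPBL, so in both, untreated controls included, NIPBL bears a degron domain that dTAGV-1 directs to degradation. For RAD21 each clone gave 3 libraries, a solvent control (DMSO, 24 h) and dTAGV-1 treatments of 4 h and of 24 h, with a spike-in of about 10% from mouse NIH/3T3 cells. STAG1 and STAG2 in clone D7, for which the labels give no treatment, PDS5A in clone D7 in DMSO for 24 h, HA in clone A2, again with no treatment given, and CTCF and WAPL in unmodified wild-type cells were the other precipitations used. Each clone and treatment held 1 library. For RAD21 the clones repeat each treatment, but the choice of sites used all 6 RAD21 lists, and every other precipitation had 1 library, so no p-value was computed. Intervals in brackets are 95% Wilson intervals for shares, or 95% Newcombe intervals for differences of shares unless stated otherwise, and cover counting error over sites only.

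Cohesin is a ring of SMC1A, SMC3 and the kleisin RAD21, completed by one of the alternative subunits STAG1 and STAG2. NIPBL, with its partner MAU2, places cohesin on DNA and drives its ATPase as the ring extrudes loops. Extruding cohesin is held at CTCF, a protein that reads DNA with its zinc fingers, so that most strong cohesin peaks in mammalian cells lie at CTCF sites. PDS5A binds RAD21 and takes part both in holding and in releasing the ring, and WAPL opens it.

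For a few of these sites the sequence can be shown, because the RAD21 summit falls in a promoter for which RefSeq (GRCh38.p14) gives the letters. The submitters' processing notes name hg38, the same assembly family, as a genome build. A promoter here is the 250 bases before and 50 bases from the start of a protein-coding gene, and 68 promoters held the summit of a lost site. The letters CCA, any 2 bases, AG, any 2 bases, GGC, the centre of the CTCF recognition sequence, were searched on both strands. They occurred in 6 of these 68 promoters, or 8.82% (4.11 to 17.9), in 65 of 507 promoters that held the summit of a persisting site, or 12.8% (10.2 to 16.0), and in 558 of all 22012 promoters, or 2.53% (2.34 to 2.75). Persisting sites are the 18801 shared sites with a peak in all 6 RAD21 lists. Matches to the full degenerate CTCF core consensus were found in 2 of the 68, 36 of the 507 and 92 of all promoters. A match is a run of letters and not a measured binding position.

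The promoters of TSFM (chr12:57782640-57782731, plus strand), CDK11A (chr1:1724500-1724591, minus strand) and ATM (chr11:108222975-108223066, plus strand) are shown because, among lost sites with a match, they had the highest clone D7 RAD21 folds. The match lay 28, 26 and 10 bp from the RAD21 summit. TSFM encodes a mitochondrial translation factor, CDK11A a cyclin-dependent kinase with a near-identical neighbouring copy, so that its reads may be shared, and ATM the kinase that signals DNA breaks. Each is written 5′ to 3′ on the gene's strand, with the match in capitals.
TSFM: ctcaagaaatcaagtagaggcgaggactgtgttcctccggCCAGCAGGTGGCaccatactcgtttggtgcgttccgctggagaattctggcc
CDK11A: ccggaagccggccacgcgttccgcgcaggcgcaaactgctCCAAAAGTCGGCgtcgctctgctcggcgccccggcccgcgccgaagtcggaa
ATM: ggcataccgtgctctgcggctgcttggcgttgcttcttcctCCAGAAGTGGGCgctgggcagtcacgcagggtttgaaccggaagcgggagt

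For contrast, the same stretch is given for persisting sites taken from the 5 of highest clone D7 fold with a match, at the promoters of DIP2B (chr12:50504850-50504941, plus strand), EHD2 (chr19:47713272-47713363, plus strand), which encodes a membrane-shaping ATPase at caveolae, and SNX18 (chr5:54517545-54517636, plus strand), a sorting nexin.
DIP2B: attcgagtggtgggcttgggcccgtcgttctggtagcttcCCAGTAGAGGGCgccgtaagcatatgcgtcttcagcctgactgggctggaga
EHD2: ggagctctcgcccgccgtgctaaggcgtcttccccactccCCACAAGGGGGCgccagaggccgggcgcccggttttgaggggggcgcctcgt
SNX18: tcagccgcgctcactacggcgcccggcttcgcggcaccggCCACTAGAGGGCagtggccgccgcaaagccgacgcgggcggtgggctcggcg

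At the TSFM site the RAD21 fold enrichment in DMSO was 6.95 (clone D7) and 7.27 (clone A2), with a CTCF fold of 89.8, a PDS5A fold of 9.98 and no STAG1 or STAG2 peak. Fold enrichment is the authors' value for a peak summit over its local background and was compared only within a list. At ATM the RAD21 folds were 6.19 and 8.59 and the CTCF fold was 43.5, with STAG1 at 5.10, PDS5A at 5.72 and no STAG2 peak. CDK11A had RAD21 folds of 6.58 and 5.15 and a CTCF fold of 32.3, again with STAG1 (3.75) and PDS5A (7.23) but without STAG2. At 2 further lost sites with a match, not shown, the match lay 31 bp (TMEM250) and 140 bp (ODAD3) from the summit, with clone D7 folds of 3.70 and 3.18 and CTCF folds of 3.04 and 86.8. The persisting promoters were picked for height, so their clone D7 folds of 92.9 (DIP2B), 84.1 (EHD2) and 75.8 (SNX18) are a description and lie above the persisting median of 22.2. DIP2B, EHD2 and SNX18 had STAG1, STAG2 and PDS5A peaks, as did AHCYL1, the highest of the 5 with 93.2, whereas CEBPB, with 71.4, had STAG1 and PDS5A but no STAG2 peak. The CTCF fold at TSFM, 89.8, was below the 106 at DIP2B, the 128 at EHD2 and the 119 at SNX18, but in the upper 25% of the CTCF list, which starts at 47.3.

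At some other lost sites with strong CTCF the promoter held no match to the searched letters. Such a search misses near matches. The SNAPC5 stretch below holds ccggaagggggc, which differs from the searched letters only in G for the A of CCA. The promoter stretches of SNAPC5 (chr15:66497763-66498012, minus strand), a subunit of the complex that drives small nuclear RNA genes, and GFM1 (chr3:158644277-158644526, plus strand), the mitochondrial elongation factor G, are shown because these sites had the second and the fourth highest CTCF fold of the set, 140 and 134. The RAD21 summit lay 92 bases before the start of SNAPC5 and 88 before that of GFM1.
SNAPC5: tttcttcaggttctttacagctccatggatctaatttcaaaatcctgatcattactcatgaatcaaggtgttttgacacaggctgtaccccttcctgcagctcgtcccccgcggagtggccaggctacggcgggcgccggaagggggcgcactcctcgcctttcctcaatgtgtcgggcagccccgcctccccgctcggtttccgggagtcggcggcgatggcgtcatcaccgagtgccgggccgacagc
GFM1: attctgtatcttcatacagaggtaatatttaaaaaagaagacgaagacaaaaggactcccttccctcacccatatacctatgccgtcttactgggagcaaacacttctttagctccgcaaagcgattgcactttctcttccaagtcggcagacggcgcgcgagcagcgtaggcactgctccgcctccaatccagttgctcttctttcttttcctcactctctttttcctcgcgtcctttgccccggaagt
The median number of CpG dinucleotides in the 300 bases was 29.5 (quartiles 19.8 and 34) at lost sites, 27 (19 and 35) at persisting sites and 21 (7 and 31) over all promoters.

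The lost sites were weak RAD21 peaks in untreated cells. Their fold enrichment in clone D7 in DMSO ran from 2.17 to 21.6 with a median of 5.75, against a median of 22.2 at persisting sites and 9.78 over all clone D7 DMSO peaks. In clone A2 in DMSO the median was 6.97, against 28.2 at persisting sites. The peaks were narrow too, with a median width of 465 bp against 828 bp. The DMSO lists helped choose the sites, so these heights are a description with no test. The share of shared sites that were lost was 16.6% below a clone D7 fold of 4, 9.15% between 6 and 8, and 0.0873% from 15 upwards, where 12 of 13753 sites were lost.

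**Figure D1:**
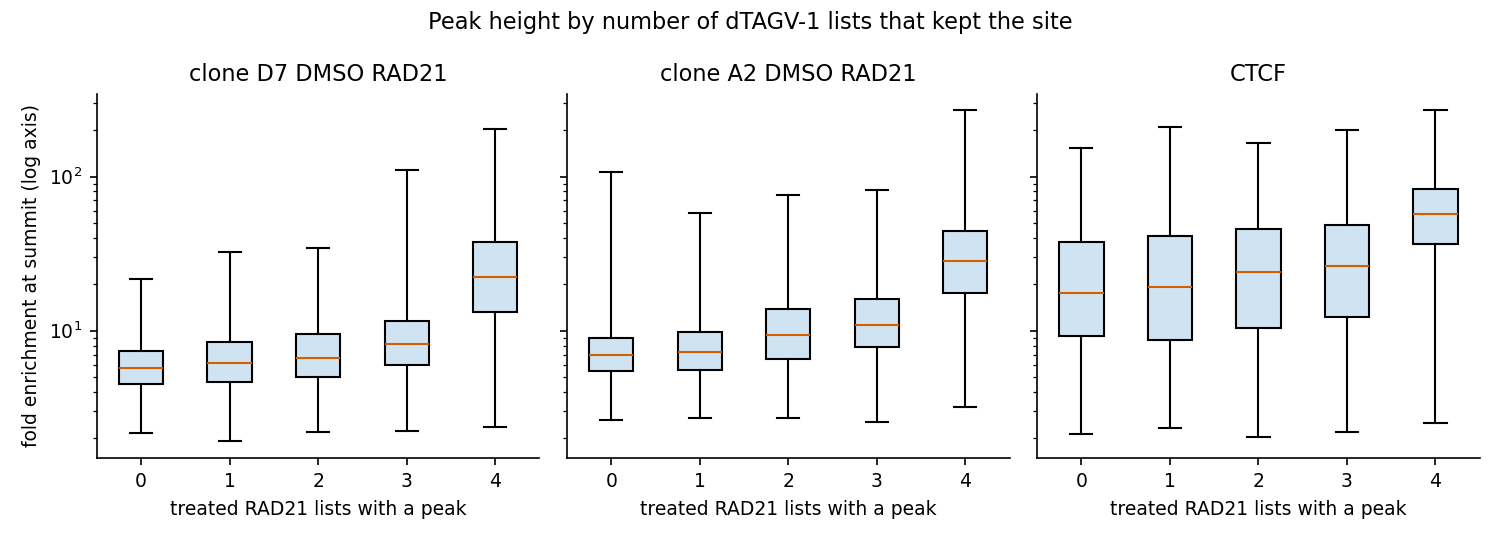
Boxes give the median and quartiles, and whiskers the lowest and highest, of fold enrichment (log axis) in the clone D7 DMSO RAD21, clone A2 DMSO RAD21 and wild-type CTCF lists, for shared sites with a peak in 0, 1, 2, 3 or 4 treated RAD21 lists. The lost sites (0) have medians of 5.75, 6.97 and 17.5, and the persisting sites (4) have 22.2, 28.2 and 57.5.

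Between these ends the medians followed the number of treated lists that kept a site. The clone D7 median was 6.14 for the 2273 sites in 1 treated list, 6.69 for the 2631 in 2 and 8.19 for the 3685 in 3. Among the sites in 1 treated list, 1670 were present only in the 4 h library of clone D7, against 242 only in clone A2 at 24 h, 193 only in clone D7 at 24 h and 168 only in clone A2 at 4 h. Sites kept in 1 treated library and lost sites thus differed little in median height.

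Absence from the untreated library of the other clone gives a level for peaks that drop out without dTAGV-1. That level includes differences of clone and of depth, with background pileups of 1.87 (clone A2) and 3.00 (clone D7). Clone D7 had no second untreated library, so it has no such level of its own. Of the 6042 clone D7 DMSO peaks at CTCF whose fold lay between the quartiles of the lost sites, 21.0% had no peak in clone A2 in DMSO. After dTAGV-1 the same share for clone A2 was 63.3% (4 h) and 53.1% (24 h), and for clone D7 34.3% (4 h) and 49.7% (24 h). All 5 comparisons share the clone D7 DMSO library. Absence was more common in every treated list than in the untreated one in all 7 strata of fold. Below a fold of 4 the 4 h library of clone D7, with 41.3%, came close to clone A2 in DMSO, with 39.7%.

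**Figure D2:**
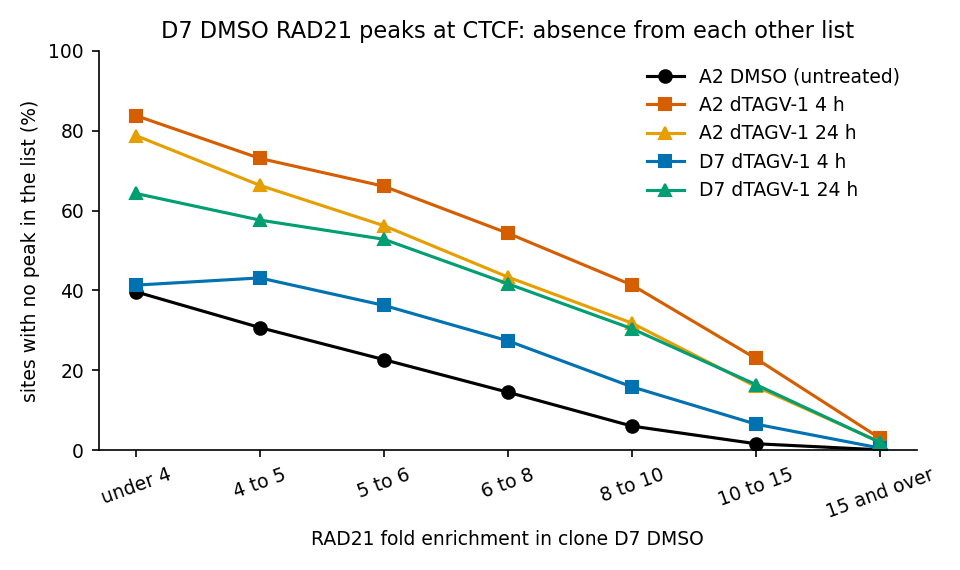
Percentage of clone D7 DMSO RAD21 peaks at CTCF with no overlapping peak in each other RAD21 list (vertical axis), by fold enrichment in clone D7 DMSO (horizontal axis, strata). The black line is the untreated clone A2 library; between folds of 5 and 6 it stands at 22.7%, with clone D7 at 4 h at 36.3% and clone A2 at 4 h at 66.1%.

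A missing call limits the signal only as far as the call depends on summit height. Fold and −log10 p, solved jointly for a peak, give whole summit pileups (the number of fragments over the summit) for 100% of peaks in the RAD21 lists, and the lowest local background of a list measures its depth. For DMSO, 4 h and 24 h in that order, clone A2 had a background of 1.87, 3.16 and 2.83 and clone D7 one of 3.00, 4.05 and 3.07, so every treated library was deeper by this measure than the DMSO library of its clone. In DMSO the summit pileup of lost sites had a median of 36 for clone D7 and of 24 for clone A2. Scaled by background alone, an unchanged median site would have reached 40.6 (4 h) and 36.3 (24 h) in clone A2, where the median limit for a call was 14 and 13. In clone D7 it would have reached 48.6 and 36.8, with limits of 19 and 16. All 1153 sites were above the limit of each treated list by this calculation, which uses the DMSO peaks that helped choose them, leaves out counting noise and is a description. That outcome was nearly fixed in advance. Each site was already a called DMSO peak, and each treated library was deeper by this measure. The share over all shared sites is not given here. As a share of the unchanged pileup, the limit had medians of 35.9% and 36.5% for clone A2 and of 40.2% and 45.4% for clone D7. Peak callers also require a minimum width, so a site can miss a call with a summit above the limit.

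**Figure D3:**
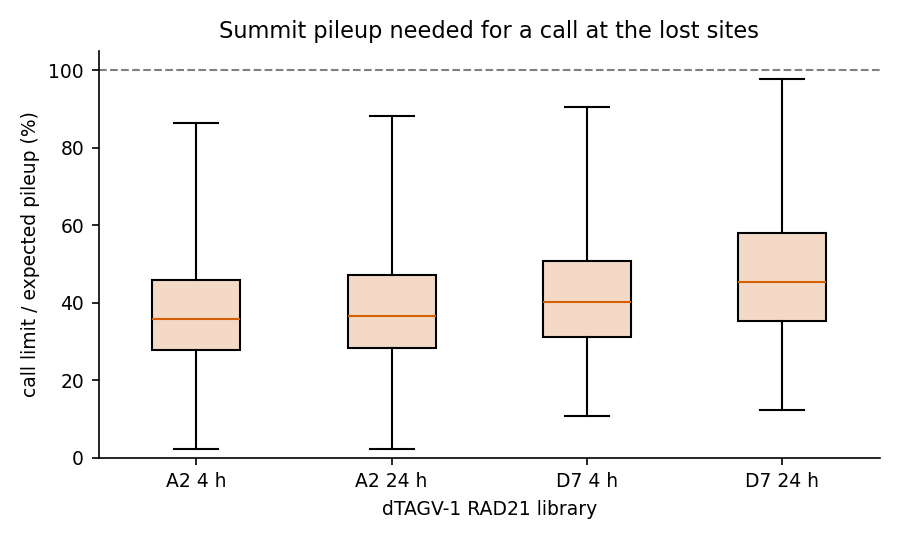
Summit pileup needed for a call, as a percentage of the pileup an unchanged site would have (vertical axis), at the 1153 lost sites in each dTAGV-1 library (horizontal axis). Boxes give median and quartiles and whiskers the extremes. All values lie below the dashed line at 100, with medians from 35.9 to 45.4. That all lie below 100 was nearly fixed by the choice of called DMSO peaks.

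Persisting sites were themselves lower after dTAGV-1. Their median summit excess over background, in units of the background and relative to DMSO, was 0.636 (4 h) and 0.883 (24 h) for clone A2 and 0.742 and 0.683 for clone D7. No spike-in scaling was applied, so these ratios hold relative to the background of each library. Persisting sites were chosen for having a treated peak, so the ratios are a description. With the excess of lost sites lowered by these ratios as well, 1059 of the 1153 would have been over the call limit of all 4 treated lists. Over 1.5 times the limit in all 4 there would have been 582, or 50.5%. These counts carry the same cautions as the calculation above. Whether the lost sites changed by more than these ratios was not tested.

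The STAG2 list, which played no part in choosing the sites, set the lost sites apart most from persisting sites by share of overlap. A STAG2 peak overlapped 111 of the 1153 lost sites, 9.63% (8.06 to 11.5), against 79.4% (78.8 to 80.0) of persisting sites and 60.5% of all shared sites. STAG1 peaks overlapped 396 lost sites, 34.3% (31.7 to 37.1), against 88.8% (88.3 to 89.2) of persisting and 77.1% of shared sites. PDS5A peaks overlapped 493, 42.8% (39.9 to 45.6), against 72.5% (71.8 to 73.1) and 65.1%. The difference between lost and persisting sites was −69.8 points for STAG2 (−71.5 to −67.9), −54.5 for STAG1 (−57.2 to −51.6) and −29.7 for PDS5A (−32.6 to −26.7). Weak sites are called less often in any list, so the comparison was repeated within 7 strata of clone D7 RAD21 fold.

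Within strata the STAG2 gap remained. Between folds of 6 and 8, STAG2 overlapped 20 of 296 lost sites, 6.76% (4.42 to 10.2), and 466 of 971 persisting sites, 48.0% (44.9 to 51.1). In the stratum below 4 the shares were 9.88% (6.17 to 15.4) and 48.5% (37.1 to 60.2), and between 10 and 15 they were 20% (12.7 to 30.0) and 64.3% (62.6 to 66.0). Weighted by the number of lost sites, the difference was −39.1 points for STAG2, with a 95% normal-approximation interval of −42.2 to −36.0, and −17.7 for STAG1 (−21.4 to −14.0). In strata of clone A2 fold it was −24.7 points for STAG2 (−28.8 to −20.7) and −22.4 for STAG1 (−27.5 to −17.4). Within a stratum of clone D7 fold, persisting sites still had the higher clone A2 fold, with medians of 12.2 against 7.58 between 6 and 8. The STAG1 difference depended on the 4 h library of clone D7, and became 2.11 points (−0.724 to 4.95) when that list was not used to define loss. The STAG2 difference kept its sign in all alternatives run, at −23.2 points without the 4 h library of clone A2 and −42.4 without that of 24 h.

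PDS5A gave no stable direction. Within strata of clone D7 fold it overlapped lost sites more often than persisting ones, by 9.76 points (6.15 to 13.4), for example 37.8% against 24.5% between folds of 4 and 5. Within strata of clone A2 fold the difference was −3.85 points (−8.96 to 1.26), and without the 4 h library of clone A2 it was −3.49 (−6.62 to −0.353). Without the 4 h library of clone D7 it was 26.8 points (24.2 to 29.3).

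**Figure D4:**
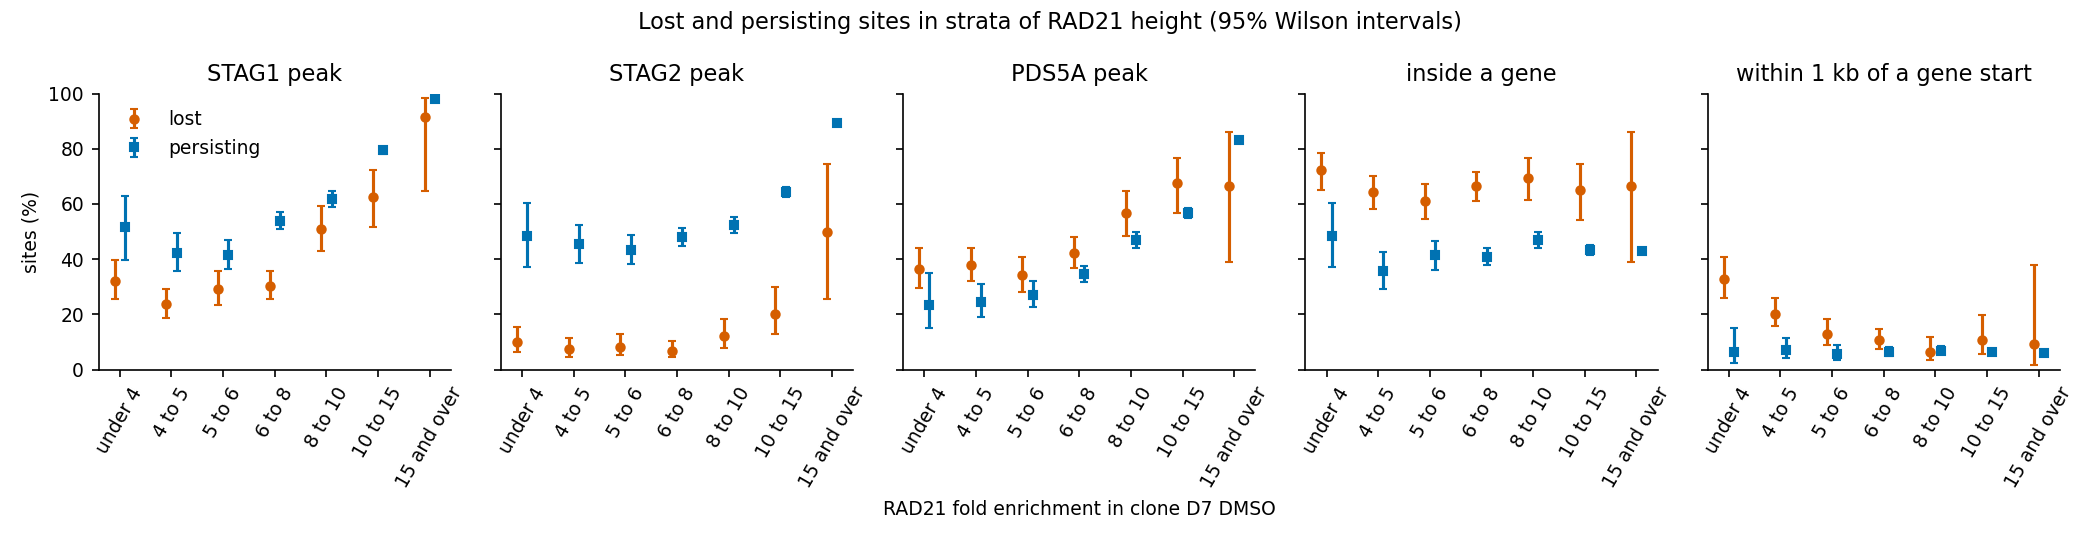
Percentage of lost (circles) and persisting (squares) sites with a STAG1, STAG2 or PDS5A peak, with the summit inside a protein-coding gene, and with a gene start within 1 kb (vertical axes), in strata of clone D7 DMSO RAD21 fold (horizontal axes), with 95% Wilson intervals. STAG2 shares of lost sites stay at or below 20% up to a fold of 15, where persisting sites have at least 43.5%; the last stratum holds 12 lost sites.

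By combination, 359 lost sites had STAG1 without STAG2, 74 had STAG2 without STAG1, 37 had both and 683 had neither. At persisting sites both subunits were present at 13783, or 73.3% (72.7 to 73.9), against 3.21% (2.34 to 4.39) of lost sites. The STAG1-only share was 31.1% (28.5 to 33.9) at lost and 15.5% (14.98 to 16.0) at persisting sites, and the STAG2-only share was 6.42% (5.14 to 7.98) and 6.11% (5.78 to 6.46). PDS5A accompanied 263 of the 359 STAG1-only lost sites but 5 of the 74 STAG2-only ones, and persisting sites were split in the same way, with PDS5A at 2447 of 2913 STAG1-only sites and no PDS5A at 1044 of 1149 STAG2-only ones. The STAG1, STAG2 and PDS5A libraries had background pileups of 1.77, 3.14 and 2.76, and their lists held 26879, 22518 and 28887 peaks with median widths of 700, 535 and 666 bp. The part of library sensitivity in the STAG2 overlap was not tested. Where a STAG2 peak was called, its median fold was 7.24 at lost sites and 13.7 at persisting sites. WAPL peaks lay at 1 lost site and at 2580 persisting sites (13.7%), against 9.18% of shared sites. HA peaks lay at 0 lost sites, which leaves room for a share of up to 0.332%, at 137 persisting sites and at 0.54% of shared sites. In strata below a fold of 10, WAPL was at 0.704% of persisting sites or fewer.

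The shares also followed the number of treated lists that kept a site. STAG2 overlapped 9.63% of lost sites, 11.0% of sites in 1 treated list, 26.5% in 2, 34.5% in 3 and 79.4% in all 4. For STAG1 the series was 34.3%, 54.2%, 52.3%, 62.6% and 88.8%, and for PDS5A it was 42.8%, 57.9%, 48.4%, 51.3% and 72.5%, neither of which rose at every step. Between lost sites and sites in 1 treated list, the STAG2 share thus differed less than the STAG1 or the PDS5A share.

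CTCF was present at every lost site by choice, but the rule did not use its height. The CTCF fold ran from 2.12 to 153 with a median of 17.5, close to the 15.6 of the whole list of 59138 CTCF peaks and below the 57.5 of persisting sites. The median was 42.8 over all clone D7 DMSO peaks at CTCF. For shared sites in 1, 2 and 3 treated lists it was 19.2, 24.1 and 26.4. In the upper 25% of the CTCF list were 207 lost sites, 18.0% (15.8 to 20.3), and 62.5% (61.8 to 63.2) of persisting sites. Within strata of RAD21 fold the difference was much smaller, at −1.59 points (normal-approximation interval −4.55 to 1.37), an average over strata that were not alike. Below a fold of 4 the share was 9.88% (6.17 to 15.4) at lost and 22.1% (13.8 to 33.3) at persisting sites, and between 4 and 5 it was 17.1% (12.9 to 22.3) and 14.8% (10.5 to 20.4). The median CTCF fold was lower at lost than at persisting sites in all 7 strata. The medians were 9.49 and 21.8 below a fold of 4, 18.8 and 24.6 between 6 and 8, 27.9 and 29.3 between 8 and 10, and 38.0 and 68.2 from 15 upwards, where 12 sites were lost. RAD21 and CTCF summits lay a median of 30 bp apart at lost sites and 25 bp at persisting sites, and within 100 bp at 82.4% (80.1 to 84.5) against 94.1% (93.8 to 94.4).

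The lost sites lay in genes more often than persisting ones. The summit was inside a protein-coding gene, exons and introns pooled, at 762 lost sites, 66.1% (63.3 to 68.8), and at 8069 persisting sites, 42.9% (42.2 to 43.6), a difference of 23.2 points (20.3 to 25.9). Within strata of clone D7 fold it was 24.3 points (normal-approximation interval 20.5 to 28.0), and within strata of clone A2 fold 20.6 (15.5 to 25.6). Between folds of 8 and 10, 69.5% (61.5 to 76.5) of lost and 46.8% (43.9 to 49.7) of persisting sites were inside a gene. The share fell with the number of treated lists that kept a site, from 66.1% through 60.4%, 59.6% and 52.9% to 42.9%. Over all clone D7 DMSO peaks it was 49.7% (49.2 to 50.2). Lost sites inside genes overlapped STAG2 in 11.0% (8.99 to 13.4) of cases and those outside in 6.91% (4.79 to 9.86), so low STAG2 overlap was found on both sides.

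For gene starts the direction was not stable across alternatives. Starts were known for 15712 of the 19974 protein-coding genes, so shares at starts are lower bounds. Of the 1099 lost sites off chromosome 8, for which no starts were used here, 172 had a start of a protein-coding gene within 1 kb, 15.7% (13.6 to 17.9), against 6.02% (5.68 to 6.38) of persisting and 10.8% of shared sites. Below a fold of 4 the shares were 32.9% and 6.25%, whereas between 8 and 10 they were 6.47% and 6.82%. The weighted difference was 9.24 points (normal-approximation interval 6.77 to 11.7) in strata of clone D7 fold and 2.79 (−1.13 to 6.72) in strata of clone A2 fold, and −3.79 (−6.21 to −1.37) without the 4 h library of clone A2. Without the 4 h library of clone D7 the share at starts was 26.2% and the weighted difference 20.6 points (18.7 to 22.5). Among sites missing from at least 1 treated list the lost sites had the lowest share at starts: it was 26.4% (24.6 to 28.2) for sites in 1 treated list, 20% (18.5 to 21.6) in 2 and 17.2% (15.99 to 18.5) in 3, and 14.2% over all clone D7 DMSO peaks. At starts, 109 of 172 lost sites overlapped STAG1, 124 overlapped PDS5A and 5 overlapped STAG2, or 63.4%, 72.1% and 2.91% (1.25 to 6.62). Away from starts the shares were 29.2%, 38.5% and 10.8% (8.95 to 12.9). At persisting sites near a start STAG2 overlapped 62.2% (59.3 to 65.1).

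Every chromosome from 1 to 22 and X held lost sites. Chromosome 19 had the highest share, 63 of 968 shared sites or 6.51% (5.12 to 8.24), followed by chromosome 17 with 5.46% (4.34 to 6.86). Chromosomes 4, with 2.77% (2.06 to 3.72), and 13, with 2.86% (1.86 to 4.37), had the lowest. The median distance to the next lost site was 437957 bp, and 50 had another within 10 kb. The nearest persisting site lay a median of 29037 bp away. A persisting site was within 10 kb of 333 lost sites, or 28.9%, and 19.5% of persisting sites had another persisting site that close.

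ZMIZ1, which encodes a transcriptional coregulator of the PIAS-like family, held 5 lost sites, the most of any gene body, among 8 shared sites of which 1 persisted. These 5 had clone D7 pileups of 45 to 85 at folds of 3.31 to 9.50, against lost-site medians of 36 and 5.75. Such pileups at such folds mean a raised local background, whose part in the calls was not tested. BCL9L, a coactivator in Wnt signalling, and HM13, the signal peptide peptidase, each held 3 lost sites of 4 shared ones. ATXN1 held 3 of 8, IGF1R, the receptor for insulin-like growth factor, 3 of 8, PALM2AKAP2 3 of 10 and MACF1, a large cytoskeletal crosslinker, 3 of 13. A further 53 genes held 2. In several of these, among them ANXA2, ARID2 and FHL2, both shared sites of the gene were lost.

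The strongest lost site had a clone D7 fold of 21.6 and lay on chromosome 8 from 26373826 to 26374534, 1506 bp from PPP2R2A, a regulatory subunit of protein phosphatase 2A. Its clone A2 fold was 18.8 and its CTCF fold 69.9, with STAG1 at 17.7, STAG2 at 11.0 and no PDS5A peak. The site in HDAC7, a class IIa histone deacetylase, on chromosome 12 from 47797246 to 47798140, had RAD21 folds of 20.9 in clone D7 and 17.6 in clone A2, a CTCF fold of 19.1, STAG1 at 8.39, PDS5A at 12.03 and no STAG2 peak. The site in RCC2, a chromosomal passenger protein, on chromosome 1 from 17419789 to 17420324, had RAD21 folds of 19.99 and 23.3 and the higher CTCF fold of 116. It overlapped STAG1 (12.7), STAG2 (5.28) and PDS5A (38.3). The clone D7 folds of these 3 sites lay below the persisting median of 22.2. The STAG2 folds at PPP2R2A and RCC2 lay below the persisting STAG2 median of 13.7. Their CTCF folds were above the persisting median of 57.5, whereas that at HDAC7 was below it.

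In UBR4, a ubiquitin ligase, the site on chromosome 1 from 19096100 to 19096710 had RAD21 folds of 18.7 and 14.4 beside STAG1 at 14.999, STAG2 at 7.75 and PDS5A at 12.7. The site in NBPF26 on chromosome 1 from 120811596 to 120812289 had 17.7 and 12.9 with STAG1 alone; NBPF genes are near-identical copies, so its reads may be shared with others. MPRIP, which binds myosin phosphatase and RhoA, held a site on chromosome 17 from 17141792 to 17142367 with folds of 16.7 and 9.35 and a second lost site 1256 bp away. Next to ZNRD2, on chromosome 11 from 65569750 to 65570525, the folds were 16.5 and 17.1, and another lost site lay 1884 bp away. MPRIP and ZNRD2 both had STAG1 and PDS5A but not STAG2.

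The site 1033 bp from S100A13, a calcium-binding protein, had RAD21 folds of 15.8 in clone D7 and 12.2 in clone A2, with STAG1 and PDS5A. AGK, a mitochondrial lipid kinase, had 15.7 and 12.9, with STAG1 at 7.58 and STAG2 at 9.90. KDM3B, a histone H3 lysine demethylase, had 15.3 and 9.25, with PDS5A alone. At ANXA2, the annexin, the folds were 15.04 and 9.33, and its STAG2 fold of 25.6 was above the STAG1 fold of 13.2, each within its own list. MTMR1, a phosphoinositide phosphatase, lay 9211 bp from a site with 15.004 and 7.99. Of these 5 sites, STAG2 was called at AGK, ANXA2 and MTMR1.

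Sites in PRDM16, a zinc-finger regulator of brown fat and haematopoietic cells, NT5DC4 and near RPS19, a ribosomal protein, had clone D7 folds of 14.8, 14.7 and 14.6 and clone A2 folds of 21.9, 16.4 and 13.3. The NT5DC4 site had a CTCF fold of 118, but that CTCF summit lay 1867 bp from the RAD21 summit, the longest distance of the set. Sites near FXYD1, a regulator of the sodium pump, in KDM6B, a histone H3 demethylase, in POU2F2, an octamer factor of B cells, in KIF13A, a kinesin, and near SNAPC5 completed the 20 strongest, with clone D7 folds from 13.7 to 14.5. STAG2 overlapped RPS19 and KDM6B among these 8, and STAG1 and PDS5A overlapped all 8.

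Height in clone A2 picked other sites. In RUNX1, a transcription factor of blood and epithelial cells, the clone A2 DMSO peak had a fold of 107 and a summit pileup of 336, while the clone D7 fold was 6.92 and the pileup 44. Its CTCF fold was 3.61. In IQCJ and the overlapping IQCJ-SCHIP1 the clone A2 fold was 47.5 and the clone D7 fold 3.49. In TFPI, the inhibitor of tissue factor, they were 40.8 and 6.64. These 3 sites stood apart from the next by clone A2 fold, RCC2 at 23.3 and PRDM16 at 21.9, and their nearest treated RAD21 peaks lay 773, 879 and 101 bp away. The clone A2 values belong to the strongest overlapping clone A2 peak. Its summit can lie away from the clone D7 summit, and that distance was not examined.

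The highest CTCF fold, 153, was at a site 885 bp from NDUFAB1, the mitochondrial acyl carrier protein, with its CTCF summit 776 bp from the RAD21 summit and no STAG1, STAG2 or PDS5A peak. SNAPC5 followed with 140, P3H3, a collagen prolyl hydroxylase, with 137, GFM1 with 134 and PLEKHG5, an activator of RhoA, with 133. At those 4 the summits lay 35, 39, 9 and 3 bp apart. Their RAD21 folds in clone D7 were 13.7, 4.24, 8.82 and 4.30, all with a PDS5A peak and none with a STAG2 peak.

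Among the genes of cohesin and its regulators, 4 of 17 (23.5%, interval 9.56 to 47.3) had a lost site inside or within 10 kb, against 5.98% of all 19974 protein-coding genes. They included NIPBL itself, with a site 834 bp from its start on chromosome 5 from 36875389 to 36876711, where RAD21 folds were 8.47 in clone D7 and 5.51 in clone A2, with STAG1 at 4.65 and PDS5A at 11.4. MAU2, the partner of NIPBL, had a site in its body with RAD21 folds of 10.3 and 12.1 and a CTCF fold of 118, and another 2449 bp beyond it. HDAC8, which deacetylates SMC3, had a site with a clone D7 fold of 5.25. None of these 4 sites had a STAG2 peak.

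Of 22 genes on a list for YAP and TGF-beta, 4 had a lost site (18.2%, 7.31 to 38.5): TEAD1, WWTR1, THBS1 (its site inside FSIP1) and TGFBI. Their clone D7 folds ran from 4.15 to 7.63, with no STAG1, STAG2 or PDS5A peak at any of them. Of 12 AP-1 and immediate early genes, FOSL1 and JUND had one, 926 bp (inside CCDC85B) and 515 bp from the gene, both with STAG1 and PDS5A. Of 18 retinal pigment epithelium genes, TJP1, the tight-junction protein ZO-1, had one, and of 22 cell cycle and p53 pathway genes, CDKN2A and its neighbour CDKN2B had 1 site between them. These lists are short and their intervals wide: 2 of 22 genes is 9.09% (2.53 to 27.8).

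At the border of the rule, the lost sites nearest to a treated RAD21 peak were 1 near BCL9L on chromosome 11 from 118929060 to 118929413, with a gap of 16 bp and a clone D7 fold of 3.15, and 1 near MGRN1 on chromosome 16 from 4624170 to 4624928, with a gap of 43 bp and a fold of 5.24. Just outside were a site in CPZ on chromosome 4 from 8592692 to 8593064, with a fold of 3.53 and an overlap of 37 bp with a clone D7 4 h peak, and a site 75682 bp from PKN2 on chromosome 1 from 88608406 to 88608852, with a fold of 5.00 and an overlap of 44 bp with a clone A2 4 h peak. Such cases were few: 5 lost sites had a treated peak closer than 200 bp, and the median gap was 9438 bp.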

How the data were processed

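ChIP-seq peak lists of 12 immunoprecipitations were used, and the 10 inputs were not analysed on their own. Per the submitters' processing notes, BWA, Picard, SAMtools, bedtools, deepTools and MACS2 were used, with the builds hg38 and mm10. The authors deposited for each peak a score, the fold enrichment (a ratio) of the summit, its −log10 p and its −log10 q. The score is the −log10 q scaled and cut to a whole number. Peaks were called per library against an input, per the peak names in the files. The lowest deposited −log10 q was 2.001 in the clone D7 DMSO list and 3.09 in the CTCF list.

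Overlaps, distances and intervals were computed in Python 3.11.15 with pandas 2.3.3 and SciPy 1.17.1. A peak's gene is the protein-coding gene that holds its summit, or the nearest one, in RefSeq GRCh38.p14 (19974 genes); starts were known for 15712 of these, none on chromosome 8. Exons were not analysed here. Values given for a site from another list are those of the strongest peak of that list that overlapped it, wherever its summit lay. Summit pileup and local background were solved from fold and −log10 p with a Poisson model, taking the fold as pileup plus 1 over background plus 1, within 0.02 of a whole number, and tested on simulated data. A call limit is the lowest whole pileup whose −log10 p reaches the lowest deposited one. The sites, gene lists and comparisons were chosen with earlier results of these data known. Named sites are the 20 of highest clone D7 fold, the 5 of highest clone A2 and CTCF fold, the genes holding most, those at listed genes, and those nearest the border of the rule. Promoter sequences were shown for some of the sites with a match, picked by clone D7 fold, and for named sites. Within-strata differences and their alternatives were weighted by the number of lost sites. The site at one gene of the cohesin list is counted but not reported here.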

Additional observations from a re-analysis of the deposited data

How the results depend on the processing

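Peak calls decide all values here, and depth was known only as background pileup. Clone A2 strata, either gene end and the alternatives for differences within strata were chosen after seeing the data. No paired analysis was possible because the results come from no test and the choice of sites used both clones together. The count of lost sites went from 1153 to 2823 without the clone D7 4 h list and to 643 with the upper 50% of CTCF peaks, and stayed within 1.5 times in the other 7 alternatives.

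With clone D7 peaks limited to a −log10 q of 10 or more, the STAG1 share was 38.8%, PDS5A 47.2%, gene starts 12.9%, the median CTCF fold 20.9 and the difference at gene starts 5.04 points. An overlap of 50% of the peak gave a CTCF fold of 19.9 and 12.5 points at gene starts. Summits within 200 bp gave STAG1 31.5%, PDS5A 37.2% and a STAG2 difference of −32.1 points. Without the clone A2 4 h list STAG2 was 13.2% and PDS5A 38.6%, and the differences were −26.99 (STAG1), −23.2 (STAG2), −3.49 (PDS5A), −3.79 (gene starts) and 17.6 points (inside a gene). Without the clone A2 24 h list PDS5A was 39.1% and the STAG2 difference −42.4. Without the clone D7 4 h list the shares were 51.8% (STAG1), 7.69% (STAG2), 58.8% (PDS5A) and 26.2% (gene starts), and the differences 2.11 (STAG1), 26.8 (PDS5A), 20.6 (gene starts) and 18.7 (inside a gene). Without the clone D7 24 h list STAG2 was 11.7%, with a difference of −33.5. Sites taken from the clone A2 DMSO list gave differences of −21.9 (STAG1), −24.7 (STAG2), −3.84 (PDS5A), 2.74 (gene starts) and 20.2 (inside a gene), and strata of clone A2 fold gave −22.4, −24.7, −3.85 and 2.79 for the first 4. The upper 50% of CTCF peaks gave STAG2 12.4%, gene starts 12.6%, a CTCF fold of 34.2 by construction and a STAG2 difference of −44.99. A window of 2500 bp around starts gave 20.4%, and either end of a gene 19.9%. Where a sign changed, for PDS5A, gene starts and STAG1, the cause was not tested. The differences for STAG2 and inside a gene kept their sign in all 10 alternatives.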

Other observations

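A second set of sites was lost without CTCF: 857 of the 3176 peaks shared by the untreated clones and free of a CTCF peak, 27.0%, had no peak in any treated list. In DMSO their RAD21 fold had medians of 4.19 (clone D7) and 4.72 (clone A2), below the 5.75 and 6.97 of the lost sites with CTCF. They overlapped STAG2 in 24.5% (21.7 to 27.5) of cases against 9.63% (8.06 to 11.5) at the lost sites with CTCF, and PDS5A in 19.5% (17.0 to 22.3) against 42.8% (39.9 to 45.6). STAG1 was at 39.2% (36.0 to 42.5) and 34.3% (31.7 to 37.1). Summits of the lost sites without CTCF lay inside a gene in 59.0% (55.7 to 62.3) of cases, against 66.1% (63.3 to 68.8) with CTCF. These shares are not given for all 3176 peaks free of CTCF. Whether the contrasts are particular to lost sites was therefore not tested.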
